A study of Homo sapiens with 6 samples.

Results

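The 7 genes described here are transcriptional targets of the tumour suppressor p53, measured by array in the human line HEK293, which derives from embryonic kidney. They are the death genes PMAIP1, BBC3, BAX and AEN, the arrest gene CCNG1 and the metabolism genes TIGAR and SESN2. They are 7 of the 14884 genes named in the array table, each with 1 row, so the brightest row of a symbol was also its only row. The 7 were chosen with their values in this comparison known. Their differences are therefore given as a description, with no test.

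The line was a Flp-In derivative, made so that an introduced construct integrates at 1 prepared genomic site. One group of 3 arrays carried TDNC1, whose full name the labels do not give, and the other group of 3 arrays carried a random RNA as control. Both groups were the same line, were kept in zeocin (100 μg/ml) and blasticidin (15 μg/ml), with hygromycin (50 μg/ml) in place of zeocin once transfected, and were pools of stable clones, so each group is a mixture of clones and not 1 clone. The labels do not state whether the construct was induced. The labels call the arrays biological replicates without naming separate cultures, so the spread between them may be partly technical.

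p53 is a transcription factor that is held low in unstressed cells and accumulates after DNA damage and other stress. Its targets then either halt the cell cycle, adjust metabolism and repair, or start cell death at the mitochondrion, where BH3-only proteins such as those of PMAIP1 and BBC3 release the pore-forming proteins BAX and BAK1. HEK293 cells were made with adenovirus DNA, and the viral E1A and E1B proteins stabilise p53 while blocking much of its activity, so the level of its targets in this line is not that of an untransformed cell.

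Each array value is the log2 expression of a transcript cluster, so a difference of 1 is a doubling. Array medians ran from 5.16 to 5.22. The 7 rows lay above at least 74.1% of all rows in every array. The number of arrays, 3 per group, limits the precision. TDNC1 replicate 3 stood nearer to control replicate 3 (median absolute difference over all rows 0.136) than to TDNC1 replicates 1 and 2 (0.188 and 0.177), which differed from each other by 0.134. Control replicate 3 likewise stood nearer to TDNC1 replicate 3 than to control replicates 1 and 2 (0.162 and 0.160). The values of the 7 genes are therefore given with and without TDNC1 replicate 3, and also without both arrays numbered 3. Of 53617 rows, 1 (0.00187%) passed limma's moderated test at a Benjamini-Hochberg adjusted p under 0.05. It was the long noncoding RNA LOC646736, at 9.71, 9.85 and 9.65 in TDNC1 replicates 1, 2 and 3 and at 3.56, 3.56 and 3.90 in the control. The smallest limma adjusted p among all other rows was 0.631. Of the markers checked, KRT8, KRT18, VIM and the renal factor PAX2 lay above the array median in all 6 arrays. The renal factor PAX8, the other measured marker of the line, stood at 4.83, 5.13 and 5.30 in TDNC1 and at 5.19, 5.14 and 4.91 in the control, above the array median in TDNC1 replicate 3 alone. The 4 measured markers of other cell types (PECAM1, DCN, LUM and ALB) lay below it in all 6.

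The regions upstream of 4 of the genes are shown because these genes carry the pattern described below. PMAIP1 and BAX had the largest differences of the 7 in opposite directions, and AEN and SESN2 had nearly the same profile over the arrays. The sequences are the 250 bases before the gene start in RefSeq, build GRCh38.p14, and all 4 lie on the plus strand. Capitals mark the GC box GGGCGG, on either strand, and the consensus p53 half-site.
PMAIP1, chr18:59899746-59899995: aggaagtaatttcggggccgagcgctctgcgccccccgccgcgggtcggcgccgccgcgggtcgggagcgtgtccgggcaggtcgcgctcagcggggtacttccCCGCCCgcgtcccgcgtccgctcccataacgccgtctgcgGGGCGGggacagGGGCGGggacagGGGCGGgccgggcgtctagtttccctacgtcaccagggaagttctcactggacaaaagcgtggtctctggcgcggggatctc
BAX, chr19:48954625-48954874: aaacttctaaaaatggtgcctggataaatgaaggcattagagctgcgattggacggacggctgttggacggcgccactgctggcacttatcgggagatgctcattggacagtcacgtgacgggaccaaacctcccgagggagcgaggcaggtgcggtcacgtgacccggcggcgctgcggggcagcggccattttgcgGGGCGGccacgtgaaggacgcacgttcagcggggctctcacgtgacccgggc
AEN, chr15:88621090-88621339: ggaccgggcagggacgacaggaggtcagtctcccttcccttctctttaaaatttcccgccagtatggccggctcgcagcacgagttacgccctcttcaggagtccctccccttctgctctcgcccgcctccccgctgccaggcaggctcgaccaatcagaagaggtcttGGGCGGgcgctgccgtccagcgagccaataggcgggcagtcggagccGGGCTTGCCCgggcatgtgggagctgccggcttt
SESN2, chr1:28259268-28259517: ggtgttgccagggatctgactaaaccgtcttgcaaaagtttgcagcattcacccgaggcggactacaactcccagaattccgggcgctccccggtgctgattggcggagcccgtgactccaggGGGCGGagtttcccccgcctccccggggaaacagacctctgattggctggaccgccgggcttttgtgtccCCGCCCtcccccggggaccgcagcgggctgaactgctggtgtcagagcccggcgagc

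All 7 genes matched an upstream region, with 8 starts in all because CCNG1 has 2. The p53 half-site, a palindrome of 10 letters read here by its usual consensus, was found upstream of AEN alone, at positions -34 to -25 from the start (GGGCTTGCCC). Of 35116 upstream regions of this length, 5.57% held a half-site. A full site of 2 half-sites with at most 13 bases between them was found in 0.0256% of the regions and in none of the 7 genes, which says only that these letters are not in these windows. The GC box was present upstream of 6 of the 7 genes, all but BBC3, against 42.6% of all regions, with 4 copies at PMAIP1. The CCAAT box, on either strand, was present at 6 of the 7, all but PMAIP1, against 32.0% of all regions. TATAAA, on either strand, was in none of the 7 and in 10.7% of all regions. The G and C content was 72.8% at PMAIP1, 49.2% at BBC3, 62.8% at BAX, 66.0% at AEN, 76.8% at TIGAR and 65.6% at SESN2, and 54.0% and 56.0% at the starts of CCNG1. The median over all regions was 58.0%, and the 4 genes with lower means in TDNC1 lay above it, the other 3 on both sides of it.

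The 7 targets did not move as a block. PMAIP1, BBC3 and CCNG1 had higher values in all 3 TDNC1 arrays than in all 3 control arrays. BAX, AEN, TIGAR and SESN2 had lower means in TDNC1, carried by TDNC1 replicates 1 and 2, while TDNC1 replicate 3 stood within or above the control range. Death genes were thus on both sides, while the 2 metabolism genes were both lower and the 1 arrest gene was higher. The groups were apart upward in 3 of the 7 genes, where 6.48% of all rows were, and apart downward in 0 of the 7, where 6.7% of all rows were. As the genes were chosen on this contrast, nothing is read from these counts. None of the 7 was among the rows called at the adjusted threshold.

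**Figure D1:**
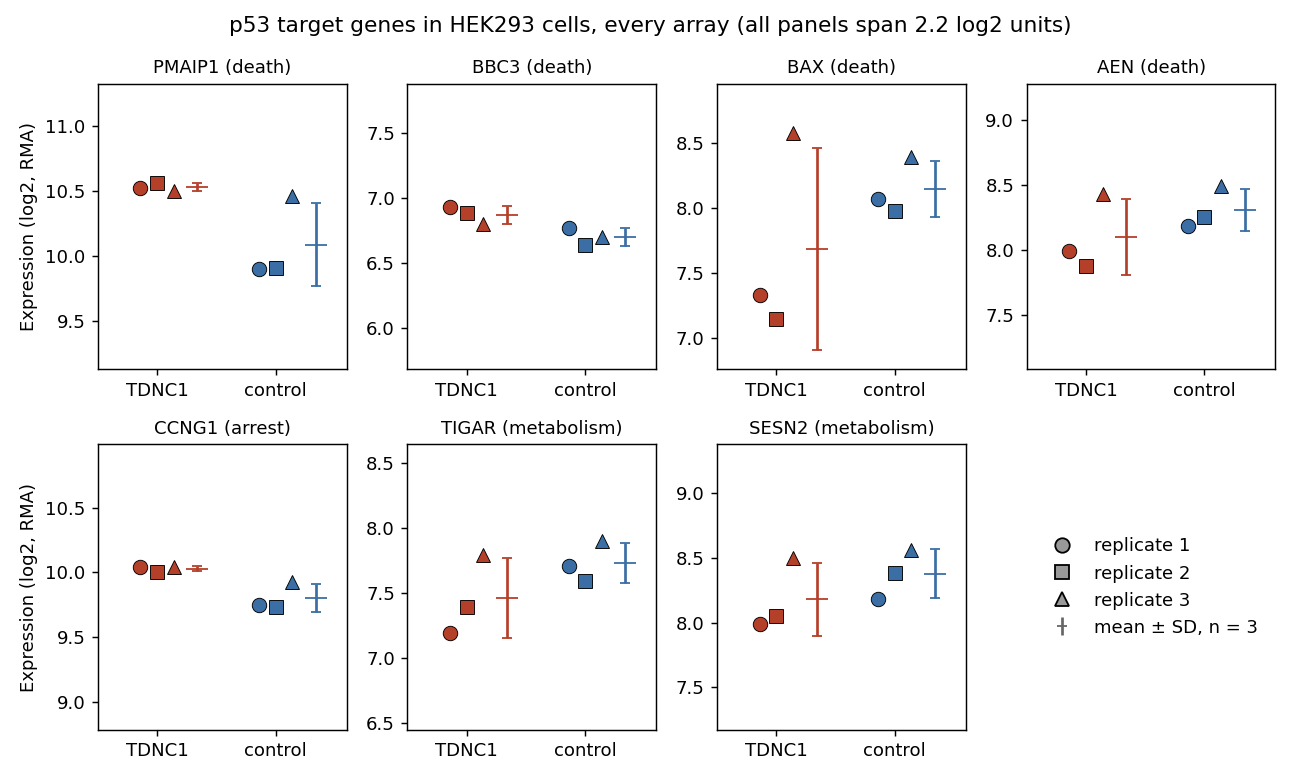
Expression of the 7 p53 target genes in every array (log2, RMA), with TDNC1 in red, control in blue and the symbol giving the replicate number; horizontal marks and bars are mean ± SD, n = 3. PMAIP1, BBC3 and CCNG1 have all TDNC1 points above all control points, whereas in BAX, AEN, TIGAR and SESN2 replicates 1 and 2 of TDNC1 lie low and replicate 3 lies with the controls.

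PMAIP1 encodes NOXA, a BH3-only protein that binds the survival protein MCL1. It stood at 10.52, 10.56 and 10.50 in TDNC1 replicates 1, 2 and 3 and at 9.89, 9.91 and 10.46 in the control. The TDNC1 arrays were tightly grouped, and control replicate 3 lay close under them, 0.043 below the lowest TDNC1 value. The TDNC1 mean was 10.53 ± 0.03 (SD, n = 3) and the control mean 10.09 ± 0.32 (SD, n = 3). The difference was 0.44 (SE 0.16), or 1.36-fold, the largest upward difference of the 7. It was 0.45 without TDNC1 replicate 3 and 0.63 without control replicate 3, so here the spread came from a control array.

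BBC3 encodes PUMA, a BH3-only protein that can bind every survival protein of the BCL2 family. It stood at 6.93, 6.88 and 6.80 in TDNC1 and at 6.77, 6.63 and 6.70 in the control. All TDNC1 arrays were above all controls, but the gap between the lowest TDNC1 and the highest control value was 0.027. The difference was 0.17 (SE 0.09), or 1.12-fold, the smallest in size of the 7. It was 0.21 without TDNC1 replicate 3.

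BAX encodes the pore-forming protein that permeabilises the outer mitochondrial membrane. It stood at 7.33, 7.14 and 8.58 in TDNC1 and at 8.07, 7.98 and 8.39 in the control. Replicates 1 and 2 of TDNC1 were the lowest of the 6 arrays, and TDNC1 replicate 3 was the highest, so the group spanned the controls on both sides. The means were 7.68 ± 0.78 (SD, n = 3) and 8.15 ± 0.22 (SD, n = 3), and the difference was -0.46 (SE 0.36). Without TDNC1 replicate 3 it was -0.91 (SE 0.15), a level 1.88-fold lower than the control. Both TDNC1 arrays then lay 0.64 or more below the lowest control. TDNC1 replicate 3 by itself was 0.19 above control replicate 3, so the direction was opposite in that array.

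AEN encodes an exonuclease that p53 induces and that degrades DNA during apoptosis. It stood at 7.99, 7.87 and 8.43 in TDNC1 and at 8.18, 8.25 and 8.49 in the control. TDNC1 replicates 1 and 2 were the lowest of the 6 arrays, while TDNC1 replicate 3 lay above control replicates 1 and 2. The difference was -0.21 (SE 0.17) with all arrays and -0.38 (SE 0.13) without TDNC1 replicate 3.

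CCNG1 encodes cyclin G1, which recruits a phosphatase to the p53 inhibitor MDM2 and is linked to arrest in G2. It stood at 10.04, 10.00 and 10.04 in TDNC1 and at 9.75, 9.73 and 9.93 in the control. The TDNC1 arrays were alike and above all controls, with control replicate 3 again nearest to them. The means were 10.03 ± 0.02 (SD, n = 3) and 9.80 ± 0.11 (SD, n = 3). The difference was 0.22 (SE 0.09), or 1.17-fold, and 0.22 without TDNC1 replicate 3.

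TIGAR encodes a phosphatase that lowers fructose-2,6-bisphosphate and so slows glycolysis. It stood at 7.19, 7.39 and 7.79 in TDNC1 and at 7.71, 7.59 and 7.90 in the control. TDNC1 replicates 1 and 2 were below all controls, and TDNC1 replicate 3 was above control replicates 1 and 2. The difference was -0.27 (SE 0.17) with all arrays and -0.44 (SE 0.13) without TDNC1 replicate 3.

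SESN2 encodes sestrin 2, a leucine sensor that restrains the growth kinase mTORC1 and is also a target of the stress factor ATF4. It stood at 7.99, 8.05 and 8.50 in TDNC1 and at 8.18, 8.38 and 8.56 in the control. TDNC1 replicates 1 and 2 were again the lowest of the 6 arrays. The difference was -0.20 (SE 0.17) with all arrays and -0.36 (SE 0.13) without TDNC1 replicate 3.

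Without TDNC1 replicate 3, the groups did not overlap in any of the 7 genes, with 3 higher and 4 lower in TDNC1. Of all rows, 15.9% were apart upward and 17.3% downward in the same 2 arrays against 3. As the 7 genes were chosen on this contrast, nothing is read from their separation here. In this setting 23 rows (0.0429%) passed limma's test, none of them 1 of the 7 genes. The differences of BAX, AEN, TIGAR and SESN2 were over 1.5 times as large without that array, and those of PMAIP1, BBC3 and CCNG1 moved by less. With both arrays numbered 3 left out, the differences were -0.79 for BAX, -0.29 for AEN, -0.35 for TIGAR and -0.27 for SESN2. They were then 0.64 for PMAIP1, 0.20 for BBC3 and 0.28 for CCNG1.

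**Figure D2:**
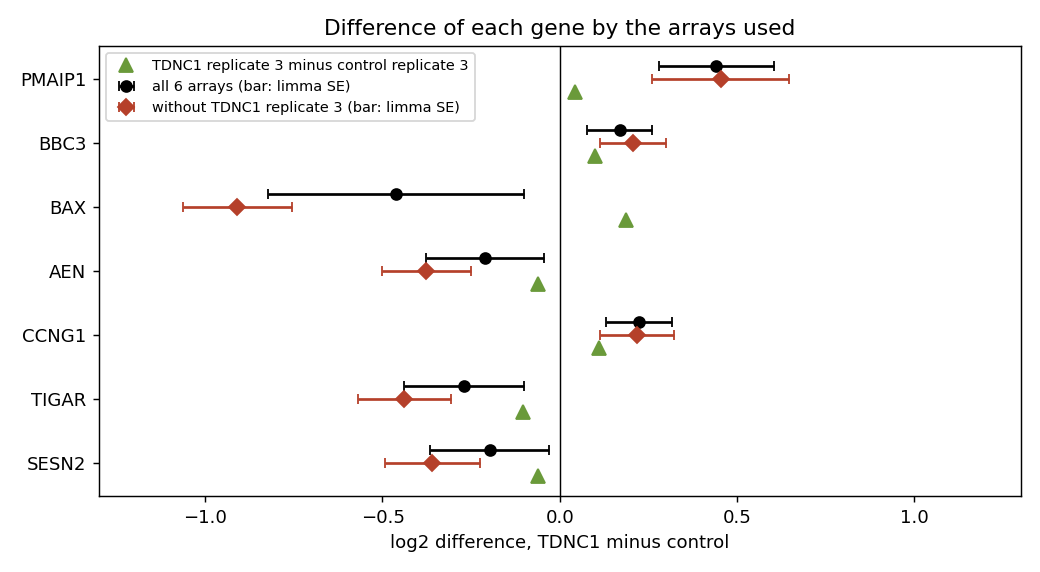
Difference in log2 expression, TDNC1 minus control, of each gene with all 6 arrays (black), without TDNC1 replicate 3 (red) and between the arrays numbered 3 alone (green, 1 array each, no error); bars are the limma standard error. BAX moves from -0.46 to -0.91 when TDNC1 replicate 3 is left out and is 0.19 between the arrays numbered 3. PMAIP1, BBC3 and CCNG1 stay above 0 in all 3 settings, PMAIP1 by only 0.04 between the arrays numbered 3.

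The arrays numbered 3 stood apart in both groups for most of the 7 genes. BAX was 1.34 higher in TDNC1 replicate 3 than in the mean of TDNC1 replicates 1 and 2, a shift exceeded by 0.390% of all rows. AEN, TIGAR and SESN2 were 0.50, 0.50 and 0.48 higher there, shifts exceeded by 6.07%, 5.94% and 6.45% of all rows. In the control group the same genes were also higher in replicate 3, by 0.37 for BAX, 0.27 for AEN, 0.25 for TIGAR and 0.28 for SESN2. PMAIP1 had the opposite distribution, with 0.56 in the control group and -0.04 in TDNC1. CCNG1 had 0.19 in the control and 0.02 in TDNC1, and BBC3 had -0.005 and -0.11. RMA holds the overall level of the arrays nearly alike, so these shifts are relative to the other rows. With these arrays compared with each other, the 7 differences lay between -0.10 (TIGAR) and 0.19 (BAX). The part of the arrays numbered 3 in the differences above was not tested beyond leaving them out.

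**Figure D3:**
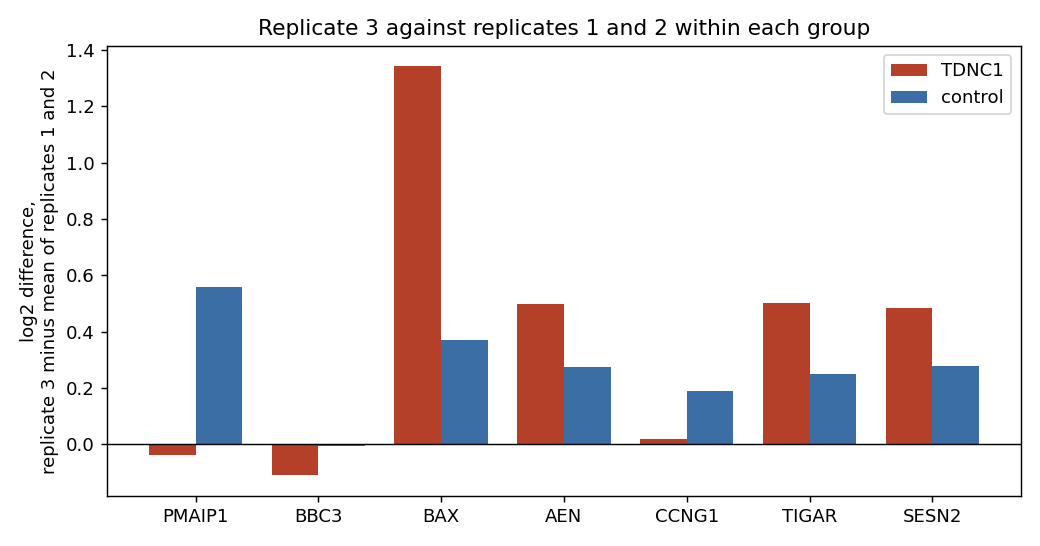
Bars give replicate 3 minus the mean of replicates 1 and 2 within TDNC1 (red) and within the control (blue), in log2 units, for each of the 7 genes. BAX has the tallest bar, 1.34 in TDNC1, AEN, TIGAR and SESN2 are above 0 in both groups, and PMAIP1 is above 0 in the control alone.

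Among themselves the death genes did not share 1 profile, while the 2 metabolism genes lay close together and the arrest role had 1 gene. Likeness was measured as the root mean square distance over the 6 arrays after each gene was centred on its own mean, and 11915 other protein-coding genes were compared with each member. AEN, a death gene, and SESN2, a metabolism gene, were 0.064 apart, and 0.688% of genes were nearer to AEN than SESN2 was. TIGAR was 0.107 from SESN2 and 0.110 from AEN. BAX likewise had its lowest values in TDNC1 replicates 1 and 2 but a wider range, and its nearest members were AEN (0.314) and TIGAR (0.319). Seen from BAX, 2.13% of genes were nearer than AEN, but seen from AEN, 77.3% were nearer than BAX. CCNG1 and BBC3 were 0.090 apart. PMAIP1 was 0.167 from CCNG1 and 0.652 from BAX, the largest distance between any pair of the 7. Seen from PMAIP1, 2.14% of genes were nearer than CCNG1, but seen from CCNG1, 47.9% were nearer than PMAIP1.

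The genes most like each member over the 6 arrays were named from the same measure. EMC10, an endoplasmic reticulum membrane complex gene, and GRN, which encodes the growth factor progranulin, were nearest to BAX (0.106 and 0.108). In both, as in BAX, the values of TDNC1 replicates 1 and 2 were low (8.27 and 8.28 for EMC10, 9.22 and 9.17 for GRN) and that of TDNC1 replicate 3 was higher (9.46 and 10.41). The homeobox gene HOXC4 (0.022) and the nucleolar methyltransferase gene NOP2 (0.028) were nearest to AEN, and TMEM259 and CYBC1 (0.030 each) to SESN2. SFXN2, a mitochondrial carrier gene, and TRUB2, a mitochondrial pseudouridine synthase gene, were nearest to TIGAR (0.035 and 0.042). On the other side, the dynein gene DNAI3 (0.048) and ENPP2, which encodes the enzyme autotaxin (0.069), were nearest to PMAIP1. PLPP6 and ZNF267 were nearest to BBC3 (0.017 and 0.022), and CCDC92 and the sterol enzyme gene SQLE to CCNG1 (0.025 each). None of these nearest genes is on the lists of p53 targets used here. The measure is a description over 6 arrays, and genes with small ranges such as BBC3 lie near many others.

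Other genes of the p53 pathway were read from lists of 78 symbols in 5 roles, of which 45 had a named row, the 7 genes included. MDM2 and CDKN1A were not analysed here, so the levels of the main p53 inhibitor and of the arrest protein p21 are not given. Of the 38 genes left for testing, 22 had higher and 16 lower means in TDNC1, and the median difference was 0.05, against -0.01 over all rows. In limma, 0 of the 38 passed at the adjusted threshold, and 1 (2.63%), lower in TDNC1, had an unadjusted p under 0.05, where 7.7% of all rows did, 3.74% higher and 3.96% lower. Without TDNC1 replicate 3, again 0 passed, and 5 (13.2%) had an unadjusted p under 0.05, 1 higher and 4 lower, where 14.5% of all rows did, 6.87% higher and 7.62% lower. With all arrays, the groups were apart upward in 3 of the 38 and downward in 3, where 6.48% and 6.7% of all rows were. These counts are small, and nothing is read from their distance to the shares of all rows.

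**Figure D4:**
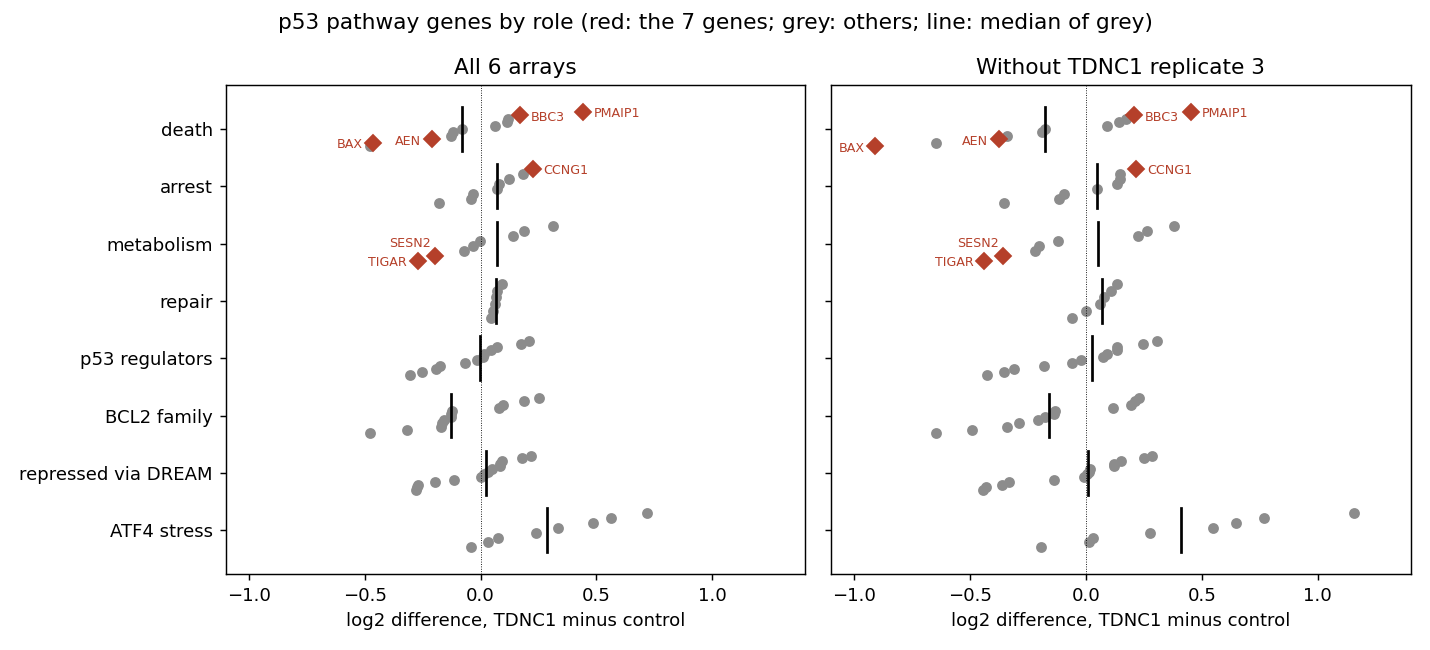
Each point is a gene, placed by its log2 difference, TDNC1 minus control, with all 6 arrays (left) and without TDNC1 replicate 3 (right), in rows by role; red diamonds are the 7 genes, grey points the other genes of each list and black lines the median of the grey points. The death, arrest and metabolism lists lie on both sides of 0 in both panels, the 6 repair genes lie above 0 with all arrays, and the ATF4 list has the highest median, 0.29 with all arrays and 0.41 without TDNC1 replicate 3.

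Of the other death genes, 3 of 7 had higher and 4 lower means in TDNC1, and 0 passed. BAK1, the second pore-forming protein beside BAX, stood at 7.79, 7.75 and 8.29 in TDNC1 and at 8.33, 8.52 and 8.40 in the control. All TDNC1 arrays were below all controls, again lowest in replicates 1 and 2. The difference was -0.47 (SE 0.16, 95% interval -0.85 to -0.10, limma adjusted p = 0.631), so it did not pass. It was -0.65 without TDNC1 replicate 3 (limma adjusted p = 0.104). BID, which activates BAX and BAK1, had a difference of -0.13, the apoptosome gene APAF1 0.11 (0.17 without TDNC1 replicate 3) and PIDD1, which builds a caspase-2 complex, 0.12 (limma adjusted p from 0.760 to 0.772).

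Of the other arrest genes, 4 of 7 had higher and 3 lower means and 0 passed, with a median of 0.07. The cell cycle repressor E2F7 had a difference of 0.12, the kinase gene PLK2 0.18, the nuclear body gene PML -0.18 and CCNG2, a relative of CCNG1, 0.07 (limma adjusted p from 0.735 to 0.835). The difference of PML was -0.35 without TDNC1 replicate 3 and -0.07 without TDNC1 replicate 2. The 3 TDNC1 arrays lay above all controls for E2F7 and CCNG2, but by gaps of only 0.040 and 0.019.

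Of the 6 other metabolism genes, 3 had higher and 3 lower means and 0 passed. SESN1, the sestrin most tied to p53, had a difference of 0.14 (SE 0.11), where SESN2 had -0.20. These were 0.22 and -0.36 without TDNC1 replicate 3. The autophagy gene DRAM1 had 0.31 (SE 0.14), SPATA18, which acts in the clearance of mitochondria, 0.19 (SE 0.12) and the respiratory assembly gene SCO2 -0.07 (SE 0.10), or -0.12 without TDNC1 replicate 3. Their limma adjusted p ran from 0.651 to 0.865. All 6 genes of repair and related functions had higher means, but by 0.09 at most. They included the ribonucleotide reductase gene RRM2B (0.07), the replication clamp gene PCNA (0.06), the polymerase gene POLK (0.06) and TRIAP1 (0.09), and 0 passed (smallest limma adjusted p = 0.844). POLK had 0.14 and TRIAP1 0.0015 without TDNC1 replicate 3. The direction was not kept by all 6 in that setting. RPS27L, named after its values were seen, had -0.06 there and 0.07 with all arrays.

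Of the 12 measured regulators of p53, 6 had higher and 6 lower means, with a median of -0.003, and 0 passed. MDM4, an inhibitor of p53, had a difference of 0.21 (SE 0.11, limma adjusted p = 0.674). It stood at 8.55, 8.51 and 8.24 in TDNC1 and at 8.25, 8.23 and 8.20 in the control, so that TDNC1 replicates 1 and 2 were above all controls and TDNC1 replicate 3 was not. CDKN2A, whose ARF product restrains MDM2, had -0.25 (SE 0.12), the p53 relative TP73 -0.31 (SE 0.16) and the p53 kinase gene HIPK2 -0.19 (SE 0.10). For CDKN2A and HIPK2 all TDNC1 arrays lay below all controls (limma adjusted p from 0.666 to 0.677 for the 3).

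Among 12 measured BCL2 family genes, with which PMAIP1, BBC3 and BAX act, 4 had higher and 8 lower means, with a median of -0.13, and 0 passed. BCL2L1, which encodes the survival protein BCL-XL, had a difference of 0.25 (SE 0.11) and BAD, a BH3-only gene, 0.19 (SE 0.09). BCL2L11, which encodes the BH3-only protein BIM, had -0.32 (SE 0.15), or -0.49 without TDNC1 replicate 3. It stood at 6.62, 6.64 and 7.16 in TDNC1 and at 7.10, 7.16 and 7.11 in the control. As for BAX, TDNC1 replicates 1 and 2 were below all controls and TDNC1 replicate 3 was not. MCL1, the partner of the PMAIP1 product, was named for that role after its values were seen. It had -0.17 (SE 0.19, limma adjusted p = 0.829), or -0.34 without TDNC1 replicate 3, and it was higher in the arrays numbered 3 of both groups (9.41 and 9.51).

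Activated p53 lowers many cell cycle genes through p21 and the DREAM repressor complex. Of 14 measured genes of that kind, 9 had higher and 5 lower means in TDNC1, with a median of 0.02, and 0 passed. With all arrays 1 of the 14 (7.14%) had an unadjusted p under 0.05 in limma, where 7.7% of all rows did. FOXM1, a transcription factor of the G2 phase, had a difference of -0.28 (SE 0.11, limma adjusted p = 0.642) with all TDNC1 arrays below all controls. With all arrays, the groups were apart downward in 2 of the 14 and upward in 0, where 6.7% and 6.48% of all rows were. PLK1 and CDC20, which drive mitosis, had -0.27 each (SE 0.15 and 0.16), or -0.43 and -0.44 without TDNC1 replicate 3, and the phosphatase gene CDC25C had 0.22 (SE 0.11). Without TDNC1 replicate 3, 5 of the 14 (35.7%) had an unadjusted p under 0.05, 1 higher and 4 lower, and 0 passed, where 14.5% of all rows had such a p, 6.87% higher and 7.62% lower.

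SESN2 is shared by p53 and the amino acid stress factor ATF4. Of 8 other ATF4 genes measured, 7 had higher means in TDNC1 with a median of 0.29, where SESN2 had -0.20, and 0 passed. PSAT1 (0.03) and TRIB3 (0.08) were little changed, and ATF3 was the 1 lower gene (-0.04). In limma 3 of the 8 (37.5%), all higher, had an unadjusted p under 0.05, where 7.7% of all rows did. Without TDNC1 replicate 3 these were 5 (62.5%), all higher, where 14.5% of all rows did. The list was chosen with earlier results known, so these shares are a description. ASNS, the asparagine synthetase gene, had 0.56 (SE 0.18), the stress factor gene DDIT3 0.49 (SE 0.16), DDIT4, which like SESN2 restrains mTORC1, 0.72 (SE 0.34) and ATF4 itself 0.24 (SE 0.10). Their limma adjusted p ran from 0.631 to 0.660. DDIT4 stood at 8.81, 8.85 and 7.52 in TDNC1 and between 7.58 and 7.76 in the control. TDNC1 replicates 1 and 2 were thus the highest arrays in DDIT4, where they were the lowest in SESN2. Without TDNC1 replicate 3 the difference of DDIT4 was 1.16 (SE 0.10, limma adjusted p = 0.0563).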

How the data were processed

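The arrays were of the Affymetrix Human Gene 2.0 ST type, and total RNA of 6 samples was used. The submitters' processing notes name RMA and Affymetrix Power Tools, with version, annotation and build not stated in the sources used here. The authors' deposited values run from 0.79 to 13.85 and were taken as log2. RMA makes the distributions of the arrays nearly alike (medians here from 5.16 to 5.22), so a shift of most transcripts would be largely removed.

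Rows were named through the platform annotation, with symbols updated by entrez identifier against the GRCh38.p14 RefSeq table. Of 53617 rows, 16098 have 1 symbol and 37519 are unnamed here. The brightest row stood for a symbol. TDNC1 and control, grouped by sample title, were compared with limma 3.58.1 in R 4.3.3 (lmFit, eBayes, two-sided, no covariate) over all rows, with Benjamini-Hochberg adjustment and a threshold of 0.05. The fit was tested on simulated data with known changes. The members, gene lists and naming rule were chosen with earlier results of these data known. Named were the 7 genes, up to 4 genes of smallest p per list, and the 2 nearest genes to each member. Upstream regions come from RefSeq.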

Additional observations from a re-analysis of the deposited data

How the results depend on the processing

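The 7 genes kept the sign of their difference in 91 of 91 values over the alternatives (each array left out, both arrays numbered 3 left out, replicate block, trend and robust fit, array weights, median centring, renewed quantile normalization, all rows of a symbol). Much of this count was fixed in advance. The replicate block, the trend and robust fit and all rows of a symbol return the same difference as the main fit for these genes. For PMAIP1, BBC3 and CCNG1, with all TDNC1 arrays above all controls, leaving arrays out could not change the sign. As the 7 genes were chosen on this contrast, nothing is read from the count. BAX ran from -0.91 to -0.19, AEN from -0.38 to -0.10, TIGAR from -0.44 to -0.14, SESN2 from -0.36 to -0.10, PMAIP1 from 0.35 to 0.64, CCNG1 from 0.19 to 0.29 and BBC3 from 0.14 to 0.21. With 1 array left out, the number of called rows ran from 1 to 23, with 23 without TDNC1 replicate 3, 2 without control replicate 3 and 1 otherwise. The median difference of the 38 other p53 genes lay between 0.03 and 0.07 in all alternatives, and 0 of them passed in any. Of 434 values of the 31 other genes given by the naming rule, 433 kept their sign and side of the threshold. The remaining 1 changed sign (SCO2, -0.07 with all arrays and 0.00088 without TDNC1 replicate 1). The lowest value of SCO2 with 1 array left out was -0.12, without TDNC1 replicate 3. Deviations of same-numbered arrays from their group means were almost uncorrelated (r over all rows 0.036, -0.001 and 0.047). TDNC1 replicates 1 and 3 correlated best with their own number, and TDNC1 replicate 2 did not. The 2 arrays numbered 3 were still each other's nearest array over all rows (median absolute difference 0.136). The replicate block left 1 row called. Only normalized values were used, so the background correction could not be varied.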
